A study of Mus musculus with 12 samples.

Results

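The genes described here encode the proteins of the mitochondrial ribosome that carry the symbols Mrpl, for the large subunit, and Mrps, for the small subunit. They were taken by symbol pattern from the 23183 gene symbols of the dataset, with at least 10 counts in at least 3 of the 12 libraries. The pattern matched 77 symbols, 48 Mrpl and 29 Mrps, and all 77 met the count rule and entered the tests over 14541 genes. The subunit follows the symbol, although the products of Mrps18a and Mrps30 sit in the large subunit of the mammalian mitochondrial ribosome. Mrps36 is likewise counted by its symbol, although its product is a part of the alpha-ketoglutarate dehydrogenase complex.

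The mitochondrial ribosome translates the few messenger RNAs of the mitochondrial genome, all of which encode membrane subunits of the oxidative phosphorylation complexes. Its ribosomal RNAs come from mitochondrial DNA, but all of its proteins are encoded in the nucleus, made in the cytosol and imported. Neurons depend on oxidative phosphorylation for synaptic transmission, and loss of single mitochondrial ribosomal proteins causes respiratory chain disease in humans.

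RNA came from the ventral hippocampus, a brain region involved in emotional behaviour, of 12 male wild-type C57BL/6J mice that were 8 weeks old when naive, with 3 mice in each of 4 groups. SES mice were stress-susceptible mice whose behaviour improved with voluntary wheel running, and SER mice were stress-susceptible runners with little or no improvement. SS mice were stress-susceptible and sedentary, and C mice were untreated controls. All SES, SER and SS mice had been restrained for 2 hours a day over 14 days. The sample titles give 14 days of wheel running and the protocol text 4 weeks. Mice were sorted into the 3 stressed groups by their behaviour, so these groups are not random samples of restrained mice. Each library is 1 mouse, so p-values measure the spread between mice.

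Library totals ran from 9323607 to 15707516 counts. Neuronal markers, a list of 8, summed to 7053 to 8021 CPM (counts scaled to a common library total) in SES, 7112 to 7943 in SER and 7249 to 7908 in SS mice, below the 8107 to 8610 CPM of every C mouse. The single markers were split, with 3 positive and 5 negative log2 fold changes of SS against C mice. Markers of hippocampal pyramidal neurons, a list of 10 led by Nptx1 and Nptxr, summed to 1366 to 1730 CPM in C mice. Sums were 1819 to 2125 CPM in SES mice and 1966 to 2121 CPM in SER mice, above every C mouse. In SS mice they were 1687 to 2157 CPM, overlapping the C mice. Of the 10 log2 fold changes of SS against C mice, 6 were positive and 4 negative. The mean log2 level of this list relative to the C mean was 0.03 ± 0.19 in SS mice (SD, n = 3). All markers of both lists were detected in each library. RNAs retained in the nucleus, a list of 9 led by Malat1, summed to 1286, 10437 and 12079 CPM in SS mice 18, 19 and 21, 2887 to 4007 CPM in SES mice, 2083 to 2891 CPM in SER mice and 1326 to 1737 CPM in C mice. Choroid plexus genes, a list of 13 that includes Ttr, summed to 6716 CPM in SS mouse 18 and 4685 CPM in C mouse 2, but to 96.0 and 101 CPM in SS mice 19 and 21 and 140 and 214 CPM in C mice 8 and 12. Thalamic markers were likewise highest in SS mouse 18 and C mouse 2, at 291 and 373 CPM, with 105 to 195 CPM in the other mice. Oligodendrocyte markers, a list of 9, summed to 11356, 3735 and 3575 CPM in SS mice 18, 19 and 21, with 4616 to 8307 CPM in runners and 6074 to 10043 CPM in C mice. Astrocyte markers summed to 8718 to 10008 CPM in SER mice, above the other groups, with 6294 to 7052 CPM in C mice. Microglia markers, a list of 8, were also highest in SER mice, at 527 to 535 CPM. Their sums were 404 to 493 CPM in SES, 406 to 459 CPM in SS and 445 to 460 CPM in C mice. The part of these levels in the results was not tested, apart from fits with the nuclear RNA or choroid plexus level. In such bulk tissue RNA, fewer cells of a type and less RNA per cell cannot be told apart.

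All 77 genes had counts in every mouse. Levels were compared between genes as mean CPM per kilobase of the transcript with the most counts. On that scale Mrps21, the counterpart of a small bacterial subunit protein, was highest at 91.3 CPM per kilobase, and Mrps33, which has no bacterial counterpart, followed at 78.5. The highest large-subunit genes were Mrpl20, which binds large-subunit RNA in bacteria, at 75.6, Mrpl42 at 73.5 and Mrpl41 at 68.2 CPM per kilobase, and Mrps18c, one of a group of related S18 proteins, stood at 57.02. The lowest large-subunit genes were Mrpl47 at 4.48, Mrpl17 at 4.84 and Mrpl1 at 6.49, and the lowest small-subunit genes Mrps35 at 4.01, Mrps5 at 6.52 and Mrps30 at 7.54 CPM per kilobase. The range was 22.8-fold, and the medians of the large and small subunit were 23.3 and 23.0 CPM per kilobase. Most of these proteins enter the ribosome as single copies. The scale depends on annotated length, and the genes with low values include long transcripts such as that of Mrpl17, with 7300 bases.

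Together the 77 genes held less of the RNA in stressed mice than in most C mice. Their summed level was 2674, 2628 and 2536 CPM in SES mice 9, 10 and 12, 2511, 2840 and 2539 CPM in SER mice 6, 19 and 20, and 2721, 2354 and 2482 CPM in SS mice 18, 19 and 21, compared with 2797, 3065 and 3151 CPM in C mice 2, 8 and 12. All SES and SS mice were below every C mouse, while SER mouse 19 was above C mouse 2. SS mouse 19 had the lowest value of all 12 mice for 31 of the 77 genes, and C mice 12 and 8 had the highest for 30 and 27. C mouse 2, the control with much choroid plexus RNA, had the highest value for 2 genes.

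**Figure D1:**
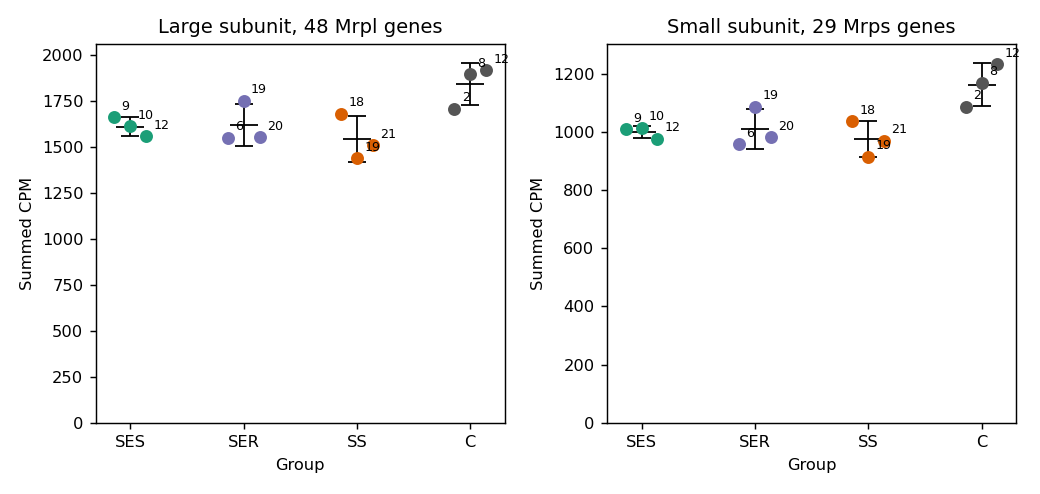
Summed CPM of the 48 Mrpl genes (left) and the 29 Mrps genes (right) in each mouse, by group, with mouse numbers; bars give the mean and SD of 3 mice. Both subunits show the same order of mice at the top, with C mice 12 and 8 highest, and SS mouse 19 lowest.

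Both subunits ran closely together across mice. The mean log2 CPM of the small-subunit genes minus that of the large-subunit genes lay between -0.07 in SER mouse 6 and 0.01 in C mouse 12. Group means of that difference were -0.02 ± 0.03 in SES mice, -0.05 ± 0.02 in SER mice, -0.01 ± 0.02 in SS mice and -0.01 ± 0.02 in C mice (SD, n = 3 each). These differences were small beside the fall of the whole set, whose mean log2 level relative to the C mean was -0.14, -0.35 and -0.27 in SS mice 18, 19 and 21, against -0.10, 0.03 and 0.07 in C mice 2, 8 and 12.

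**Figure D2:**
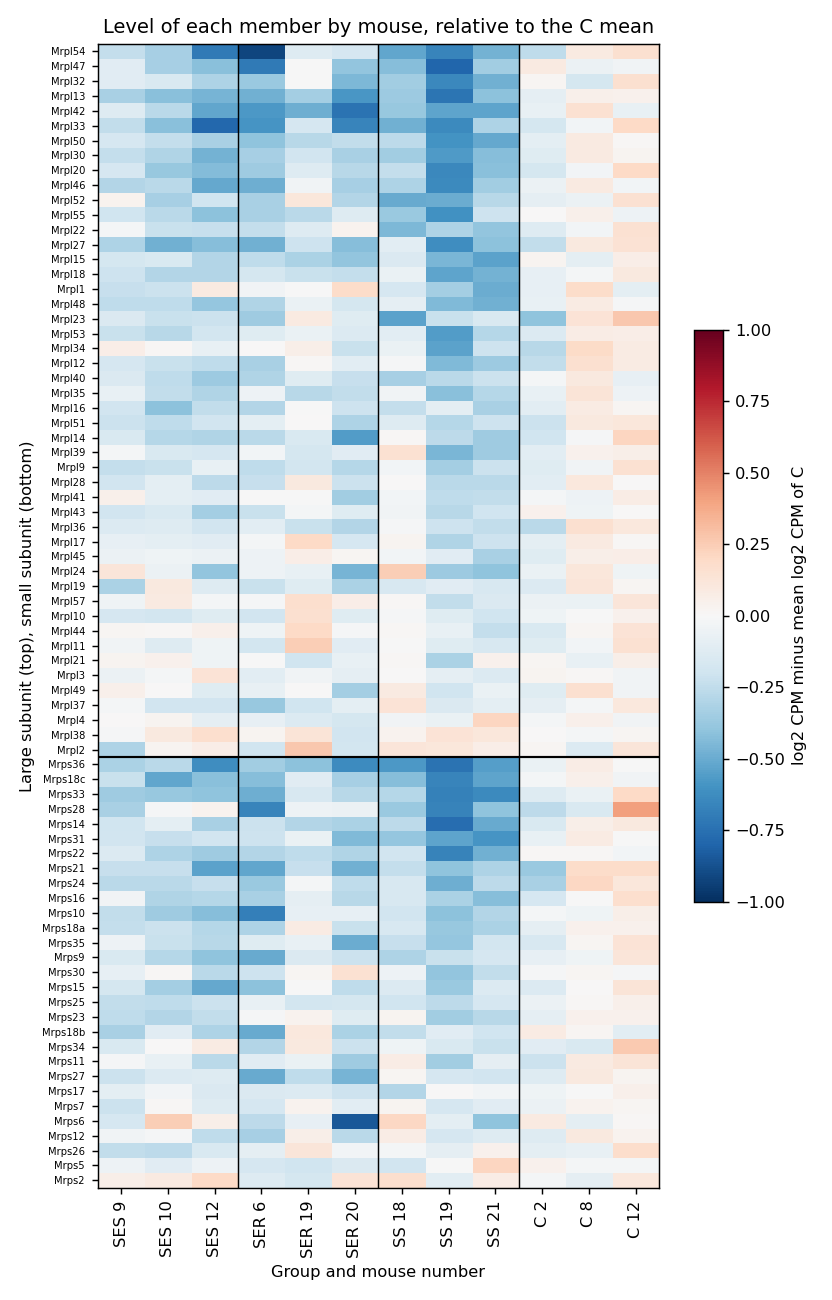
Level of each of the 77 genes (down the page, large subunit above the line and small subunit below, ordered by the change in SS mice) in each mouse (across), as log2 CPM minus the mean log2 CPM of the 3 C mice. Blue is below the C mean; most genes are blue in SS mice 19 and 21, and the genes at the foot of each block are near 0 on average in SS mice.

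The comparison of SS with C mice asks what distinguishes sedentary stress-susceptible mice from controls. Of the 77 genes, 12 were lower in SS mice and 0 higher at an adjusted p under 0.05 (edgeR's quasi-likelihood test, Benjamini-Hochberg adjustment over 14541 genes). Of all genes tested, 9.83% were called, 4.63% lower and 5.21% higher. The 12 were 6 of 48 Mrpl genes and 6 of 29 Mrps genes. The median log2 fold change was -0.23 in each subunit, a fall of 14.5% for the whole set, against 0.02 over all genes tested. All but 5 of the 77 fold changes were negative, and the SS and C mice did not overlap, with SS lower, for 32 genes, or 41.6% of the set, against 14.2% of all genes. The reverse held for Mrpl38 alone (1.30%), against 12.7% of all genes.

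The count of 12 rests on single mice. It was 0 when any one of C mouse 8, C mouse 12, SS mouse 19 and SS mouse 21 was left out. Without SS mouse 18, the SS mouse with little nuclear RNA and much choroid plexus RNA, 26 of the 77 and 12.2% of all genes were called lower, so calls rose over all genes as well. Adding the nuclear RNA level to the model left 0 of the 77 and 0 of all genes called, with 12 members (beside 13.5% of all genes) at an unadjusted p under 0.05 and a median of -0.14. Adding the choroid plexus level instead gave 15 members called lower, beside 6.49% of all genes.

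Among genes with Mrps symbols the lowest p belonged to Mrps36, whose short product is a part of the alpha-ketoglutarate dehydrogenase complex. Its level was 24.4, 21.7 and 24.8 CPM in SS mice 18, 19 and 21, compared with 34.6, 38.1 and 36.2 CPM in C mice 2, 8 and 12. The 2 groups were well apart, with a log2 fold change of -0.62 ± 0.12 (SE; adjusted p = 0.0223, edgeR). Mrps18c, an S18 protein, had 33.1, 28.1 and 30.8 CPM in the SS mice, against 43.9, 46.0 and 43.3 CPM in the C mice (-0.54 ± 0.12, adjusted p = 0.0244, edgeR). Mrps33 had 86.9, 66.5 and 68.2 CPM in the SS mice, against 97.2, 101 and 121 CPM in the C mice (-0.53 ± 0.12, adjusted p = 0.0266, edgeR). For Mrps33, SS mouse 18 came close to C mouse 2, and the other SS mice were well below.

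Mrps14, Mrps31 and Mrps22 completed the called small-subunit genes. Mrps14, the counterpart of bacterial S14, averaged 32.4 ± 5.58 CPM in SS mice and 45.8 ± 4.18 CPM in C mice, and Mrps31, without a bacterial counterpart, 16.6 ± 1.21 and 23.4 ± 1.27 CPM (SD, n = 3 each). Mrps22, mutated in human respiratory chain deficiency, had 25.4, 18.3 and 20.7 CPM in SS mice 18, 19 and 21, compared with 29.2, 29.3 and 28.4 CPM in C mice 2, 8 and 12. Its C mice were almost equal and the spread lay in the SS mice. Its log2 fold change of -0.44 ± 0.13 had an adjusted p of 0.0453 (edgeR), close to the threshold.

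Among large-subunit genes, Mrpl30, the counterpart of bacterial L30, had the lowest p. Its level was 61.8, 53.2 and 58.4 CPM in SS mice 18, 19 and 21, compared with 72.4, 83.7 and 80.1 CPM in C mice 2, 8 and 12 (log2 fold change -0.45 ± 0.10, adjusted p = 0.0244, edgeR). Mrpl13, the counterpart of L13, had 41.2, 31.9 and 39.8 CPM in the SS mice, against 49.6, 54.7 and 54.4 CPM in the C mice (-0.49 ± 0.11, adjusted p = 0.0259, edgeR). Mrpl42, an addition of the mitochondrial ribosome without a bacterial counterpart, had 47.1, 42.4 and 42.6 CPM in the SS mice, against 58.1, 68.2 and 58.1 CPM in the C mice (-0.48 ± 0.12, adjusted p = 0.0285, edgeR). For each of these genes every SS value was below every C value. Mrpl13 shares 330 exon bases with Mtbp on the opposite strand in the annotation, and whether the counting used strand is not given in the sources used here.

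Mrpl50, another mitochondrial addition, averaged 44.7 ± 5.42 CPM in SS mice and 61.1 ± 3.85 CPM in C mice (SD, n = 3 each; log2 fold change -0.45 ± 0.10). Mrpl32, whose precursor is cut by a protease of the inner membrane before it joins the ribosome, averaged 17.9 ± 1.86 CPM in SS mice and 25.2 ± 2.87 CPM in C mice. Mrpl20 averaged 50.7 ± 7.07 CPM in SS mice and 68.5 ± 9.20 CPM in C mice. Both passed narrowly, at adjusted p-values of 0.0489 for Mrpl32 and 0.049 for Mrpl20 (edgeR), and Mrpl15 at 0.0592 and Mrpl55 at 0.0598 just missed. In all, 10 further Mrpl genes but 1 further Mrps gene, Mrps25, had an adjusted p between 0.05 and 0.1.

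Fold change and call did not run together throughout. Mrpl54 at -0.56 ± 0.20 and Mrps28 at -0.51 ± 0.21 had log2 fold changes as large as those of called genes, with wider errors and adjusted p-values of 0.0823 and 0.13 (edgeR). At the other end, Mrpl2 (0.10 ± 0.14), Mrpl38 (0.09 ± 0.10), Mrps2 (0.05 ± 0.12), Mrpl4 (0.04 ± 0.10) and Mrps5 (0.02 ± 0.11) had values at or above 0, all within about 1 standard error. These include some of the best conserved proteins, L2, L4, S2 and S5, which are present in bacteria. Over the set, the 47 genes with a bacterial counterpart and the 30 without had similar medians, -0.23 and -0.22, with 6 called lower in each.

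**Figure D3:**
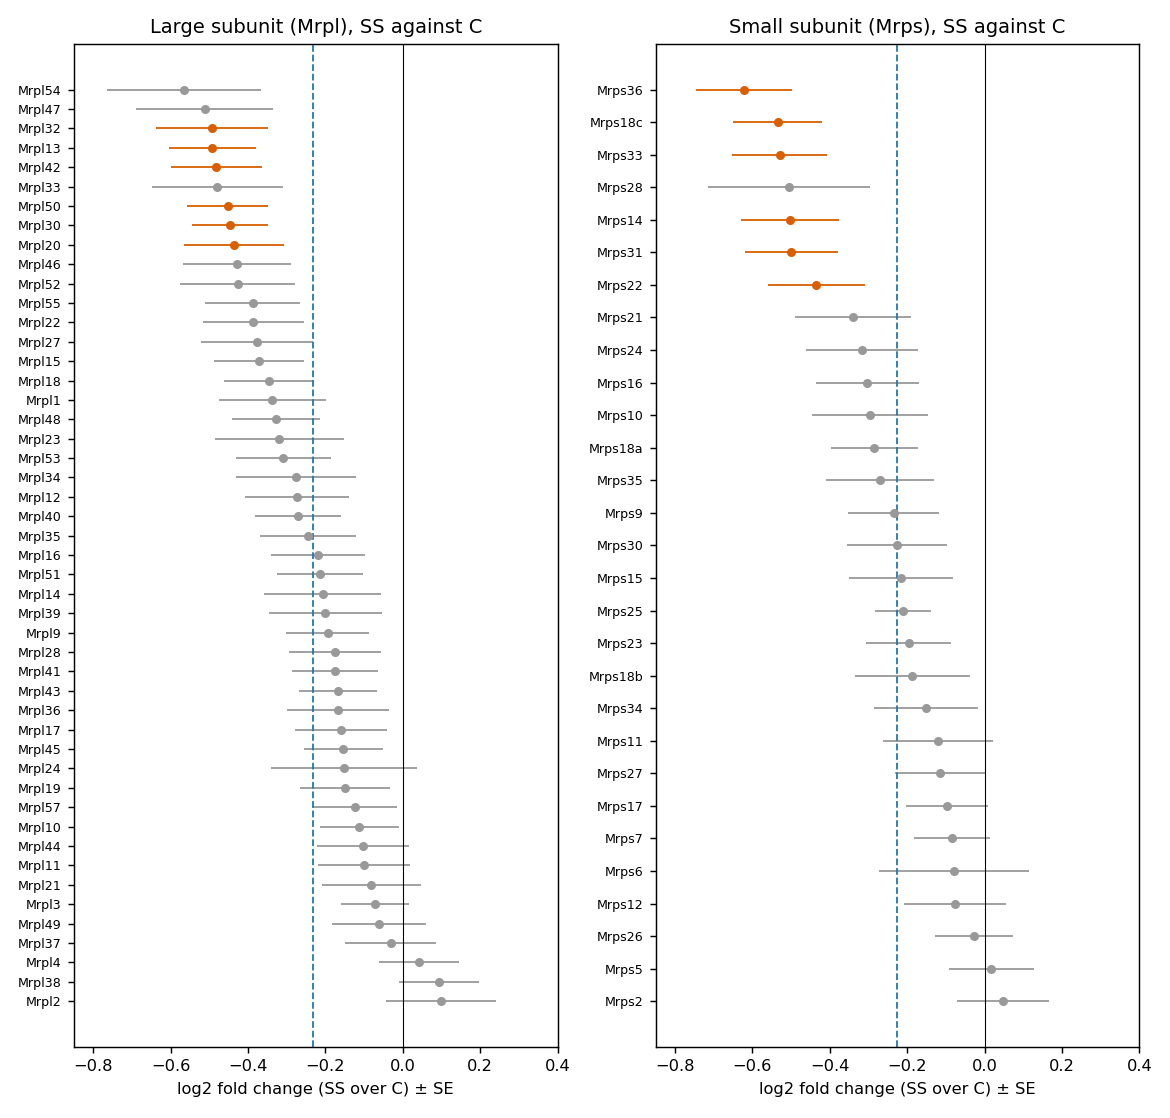
Log2 fold change of SS over C mice with its SE for each Mrpl gene (left) and Mrps gene (right); orange marks the 12 genes with an adjusted p under 0.05 and the dashed line the median of the subunit. Both medians lie at -0.23, and the lowest value is that of Mrps36 at -0.62.

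Mitochondrial ribosomal protein genes have short transcripts, with a median of 1226 bases against 2989 bases over all genes tested, and the fold changes of all genes in SS mice were lower for shorter transcripts. Under 1000 bases, 5 of 25 members (20.0%) were called lower with a median log2 fold change of -0.34, beside 16.7% and -0.28 for all genes of that length. Between 1000 and 2000 bases it was 4 of 29 members with a median of -0.18, beside 6.41% and -0.08 for all genes. Above 2000 bases it was 3 of 23 members with a median of -0.21, beside 3.13% and 0.07 for all genes. The members' median thus lay below that of all genes in each length class, by least among the shortest. Median GC content of the transcripts was 50.7% in the set and 50.4% over all genes. After offsets for GC content and length the median of the 77 was -0.13, with 0 of the 77 and 0 of all genes called lower.

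**Figure D4:**
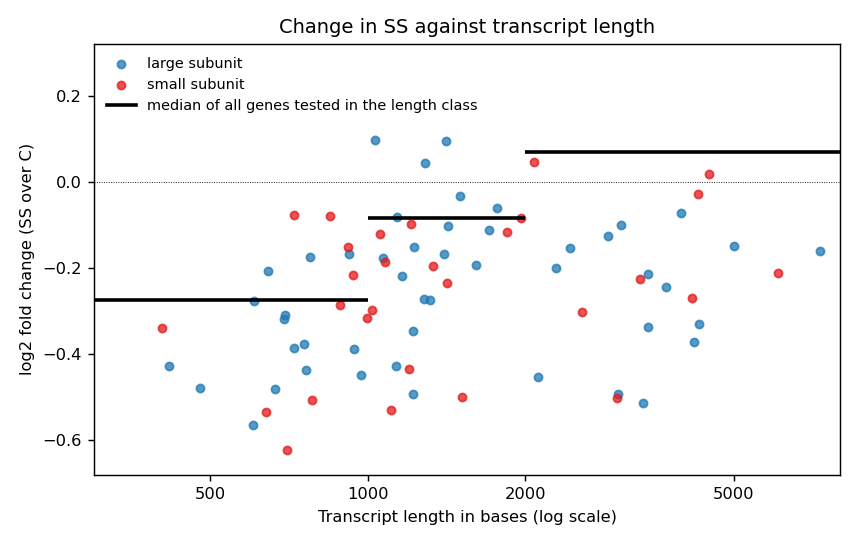
Log2 fold change of SS over C mice for each member against the length of its main transcript (log scale), with black lines at the median of all genes tested in each of 3 length classes. Members shorter than 1000 bases have a median of -0.34, and the all-gene line climbs with length to 0.07.

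Promoters of the set were searched for the letters of sites that serve nuclear genes for mitochondria: GCATGCGC, bound by NRF1, CCGGAAG, bound by ETS factors such as GABPA, and AAGATGGCG, bound by YY1, on both strands. A window of 250 bases before to 50 after the start was listed in RefSeq (GRCm38.p6) for 68 of the 77 genes and 10996 genes tested. The ETS letters were in 24 of the 68 (35.3%) and in 16.6% of all windows, the YY1 letters in 8 (11.8%) and 2.97%, and the NRF1 letters in 8 (11.8%) and 5.14%. By subunit, the NRF1 letters were in 7 of 42 Mrpl and 1 of 26 Mrps windows, and the ETS letters in 13 and 11. In SS against C mice the 24 with the ETS letters had 3 genes called lower and a median of -0.28, and the 44 without had 8 and -0.22. The medians with and without the NRF1 letters were -0.20 and -0.23, and with and without the YY1 letters -0.21 and -0.22. The matches describe letters only and are not evidence of binding.

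The 150 bases before the start are shown for the called genes that hold such letters there, Mrps22 and Mrpl32, and for the called gene of each subunit with the lowest p, Mrps36 and Mrpl30, which hold none. Called Mrps18c has the ETS letters from base -156, at the edge of that stretch, and is not shown. Capitals mark the letters searched. Mrps22 has the ETS letters from base -11, and Mrpl32 has the NRF1 letters from bases -87, -85, -66 and -22, the first pair overlapping on opposite strands. The windows are chr9:98601680-98601829 on the minus strand, chr13:14613038-14613187 on the minus strand, chr13:100744660-100744809 on the minus strand and chr1:37890327-37890476 on the plus strand, each printed 5′ to 3′ along the gene.
Mrps22: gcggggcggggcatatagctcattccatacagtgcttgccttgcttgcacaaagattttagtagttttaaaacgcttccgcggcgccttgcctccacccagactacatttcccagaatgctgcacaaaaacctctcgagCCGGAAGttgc
Mrpl32: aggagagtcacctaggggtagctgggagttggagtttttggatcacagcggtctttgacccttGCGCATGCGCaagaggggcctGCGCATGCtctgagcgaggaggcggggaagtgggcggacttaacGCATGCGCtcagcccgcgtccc
Mrps36: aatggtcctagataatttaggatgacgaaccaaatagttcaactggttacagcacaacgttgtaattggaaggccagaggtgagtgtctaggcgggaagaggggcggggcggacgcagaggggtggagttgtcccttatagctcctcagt
Mrpl30: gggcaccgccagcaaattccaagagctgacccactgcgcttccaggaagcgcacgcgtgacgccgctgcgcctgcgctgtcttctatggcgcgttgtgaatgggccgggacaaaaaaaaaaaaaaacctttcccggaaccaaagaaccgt

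Other genes of mitochondrial translation did not all move with the ribosomal proteins in SS mice. Of 6 further ribosome genes whose symbols fall outside the pattern, 2 were called lower and 0 higher, with a median of -0.19. Chchd1, a small-subunit protein, averaged 26.5 ± 3.33 CPM in SS mice and 39.9 ± 5.12 CPM in C mice (SD, n = 3 each; log2 fold change -0.59 ± 0.13, adjusted p = 0.0247, edgeR), and Aurkaip1 55.4 ± 7.04 and 74.2 ± 4.13 CPM (-0.42 ± 0.11, adjusted p = 0.0337, edgeR). Dap3, a GTP-binding protein of the small subunit, was at -0.12 ± 0.10 with an adjusted p of 0.49 (edgeR).

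Of 15 translation factors 1 was called, and it was higher, beside 5.21% of all genes called higher and 4.63% lower. Guf1, an elongation factor, had 13.9, 38.3 and 35.2 CPM in SS mice 18, 19 and 21, compared with 16.6, 13.2 and 12.4 CPM in C mice 2, 8 and 12 (log2 fold change 1.06 ± 0.29, adjusted p = 0.0373, edgeR). Its high values were those of the SS mice rich in nuclear RNA, while SS mouse 18 was among the C mice. Of 26 assembly and RNA-modifying factors, Rpusd3, a pseudouridine synthase for mitochondrial ribosomal RNA, was higher (0.67 ± 0.15), and Trmt2b, a methyltransferase (-0.56 ± 0.13), and Gtpbp10, a large-subunit assembly GTPase (-0.45 ± 0.13), were lower. The adjusted p-values were 0.0247 for Rpusd3, 0.0268 for Trmt2b and 0.0459 for Gtpbp10 (edgeR). Of 19 mitochondrial tRNA synthetases 0 were called by edgeR, and 6 (31.6%) had an unadjusted p under 0.05, near the 28.2% of all genes, with a median of 0.05. The lowest adjusted p-values there were 0.0752 for Vars2 and 0.0899 for Tars2, both with positive fold changes.

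Genes that copy and transcribe mitochondrial DNA were split, with 1 of 15 called higher and 3 lower, beside 5.21% and 4.63% of all genes. Polg, the mitochondrial DNA polymerase, averaged 49.7 ± 3.40 CPM in SS mice and 34.1 ± 1.38 CPM in C mice (log2 fold change 0.55 ± 0.10, adjusted p = 0.0223, edgeR; SD, n = 3 each). Tfam, which packages mitochondrial DNA and starts its transcription, had 36.5, 37.9 and 35.0 CPM in SS mice 18, 19 and 21, compared with 48.8, 47.7 and 47.2 CPM in C mice 2, 8 and 12. Tfam values were tight within each group and far apart between them, also in SS mouse 18 (log2 fold change -0.39 ± 0.10, adjusted p = 0.0311, edgeR). Tfb2m, a transcription factor of mitochondria, was at -0.45 ± 0.11 and Mterf2 at -0.53 ± 0.15, with adjusted p-values of 0.0303 and 0.0453 (edgeR).

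None of 9 regulators of mitochondrial biogenesis was called by edgeR, and 2 had an unadjusted p under 0.05 (22.2%, against 28.2% of all genes). Ppargc1a, a coactivator of mitochondrial genes, was at -0.26 ± 0.11 (adjusted p = 0.136, edgeR), Nrf1 at 0.16 ± 0.16 and Gabpa at -0.01 ± 0.16. Of the lists of protein complexes in the same tests, 40 of 86 oxidative phosphorylation genes were called lower with a median of -0.37, and 57 of 91 cytosolic ribosomal protein genes with a median of -0.43, both beyond the 12 of 77 and -0.23 of the mitochondrial ribosome.

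The comparisons of SES and SER with SS mice ask what running changed in stress-susceptible mice that did or did not improve. In SES against SS mice, 0 of 77 genes were called by edgeR, DESeq2 or limma-voom, as were 0% of all genes by edgeR, and 2 members (2.60%) had an unadjusted p under 0.05, against 9.01% of all genes. The groups did not overlap for 5 genes with SES higher and 2 with SES lower, or 6.49% and 2.60%, against 6.33% and 5.92% of all genes. The median log2 fold change was 0.07 in the large and 0.04 in the small subunit. Mrps31 had 20.5, 19.9 and 20.5 CPM in SES mice 9, 10 and 12, against 17.9, 16.2 and 15.5 CPM in SS mice 18, 19 and 21. The SES values were all higher, yet the log2 fold change of 0.29 ± 0.12 had an adjusted p of 0.524 (edgeR). Mrpl32 at 0.30 ± 0.15 and Mrps28 at 0.38 ± 0.21 also had every SES value above every SS value, while for Mrps14 at 0.29 ± 0.13 the groups overlapped. Mrps26 leaned the other way at -0.19 ± 0.10, with adjusted p = 0.575 (edgeR). Without SS mouse 18, 1 member (1.30%) was called higher, beside 3.26% of all genes: Mrps14 at 0.43 with an adjusted p of 0.0406 (edgeR).

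In SER against SS mice, 0 of 77 were called by any of the same 3 tools, and 3 (3.90%) had an unadjusted p under 0.05, against 18.2% of all genes. By edgeR 0.0481% of all genes were called, 0.0275% lower and 0.0206% higher. SER and SS mice did not overlap for 3 genes with SER higher and 2 with SER lower, or 3.90% and 2.60%, against 8.84% and 8.1% of all genes. The medians were 0.07 and 0.04. Mrpl1, a large-subunit protein of the stalk region, had 23.1, 23.6 and 26.8 CPM in SER mice 6, 19 and 20, against 21.0, 18.7 and 16.8 CPM in SS mice 18, 19 and 21 (log2 fold change 0.38 ± 0.14, adjusted p = 0.186, edgeR). Mrps27, an RNA-binding protein of the small subunit, was at -0.29 ± 0.12 with an adjusted p of 0.22 (edgeR), and its 3 SER mice were all below the SS mice. Without SS mouse 18, 3 members (3.90%) were called higher, beside 7.49% of all genes, among them Mrpl1 at 0.47 and Mrps33 at 0.36 (adjusted p = 0.0437 and 0.0491, edgeR). Both running groups are set against the same SS mice, so the likeness of their medians is not independent.

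SES and SER mice differ in behavioural response to the same running. In SES against SER mice 0 of 77 genes were called by edgeR, DESeq2 or limma-voom, beside 0.0275% of all genes by edgeR, and 3 members (3.90%) had an unadjusted p under 0.05, against 3.72% of all genes. Their groups did not overlap for 4 genes with SES lower and 2 with SES higher, or 5.19% and 2.60%, against 5.36% and 5.4% of all genes. For the set, the medians were -0.03 in the large and 0.02 in the small subunit. The lowest unadjusted p belonged to Mrpl42, with 56.1, 50.7 and 42.8 CPM in SES mice 9, 10 and 12, against 41.1, 43.7 and 36.8 CPM in SER mice 6, 19 and 20. The groups overlapped, and the log2 fold change of 0.30 ± 0.12 had an adjusted p of 1.00 (edgeR). Mrps6, a small-subunit protein, had the largest value at 0.41 ± 0.19, and SER mouse 20 stood apart with 14.7 CPM, against 22.1 and 25.1 CPM in SER mice 6 and 19. Mrps26 at -0.22 ± 0.10 and Mrps23 at -0.24 ± 0.11 were lower in every SES than in every SER mouse, without passing the adjusted threshold.

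Both running groups were also set against the C mice. In SES against C mice 0 of 77 genes were called by edgeR or limma-voom and 3 by DESeq2, beside 0.179% of all genes by edgeR, and 26 (33.8%) had an unadjusted p under 0.05, all of them lower, against 16.2% of all genes in either direction. The median log2 fold change was -0.19 in the large and -0.21 in the small subunit. SES and C mice did not overlap, with SES lower, for 32 of the 77 (41.6%), against 13.2% of all genes, and for 0 with SES higher, against 12.8%. Mrpl13 had 42.2, 39.6 and 38.3 CPM in SES mice 9, 10 and 12, against 49.6, 54.7 and 54.4 CPM in C mice 2, 8 and 12. Every SES value was below every C value, and its adjusted p of 0.139 was the lowest of the set (log2 fold change -0.40 ± 0.11, edgeR). Mrpl30 (-0.34 ± 0.10), Mrps18c (-0.38 ± 0.11), Mrps25 (-0.24 ± 0.07), Mrps36 (-0.40 ± 0.12) and Mrps33 (-0.39 ± 0.12) followed. Without SS mouse 18, whose group enters through the shared estimate of spread, 2 (2.60%) were called lower, beside 1.37% of all genes, Mrpl13 and Mrps33 (adjusted p = 0.0441 and 0.0474, edgeR). Mrps25 shares 4590 exon bases with Nr2c2 on the opposite strand, and whether the counting used strand is not known here.

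In SER against C mice 1 of 77 was called, Mrpl42, beside 1.19% of all genes, 0.337% lower and 0.853% higher. Its level was 41.1, 43.7 and 36.8 CPM in SER mice 6, 19 and 20, against 58.1, 68.2 and 58.1 CPM in C mice 2, 8 and 12 (log2 fold change -0.60 ± 0.12, adjusted p = 0.0366, edgeR). Mrpl13 at -0.46 ± 0.11, Mrps36 at -0.46 ± 0.12 and Mrps27 at -0.41 ± 0.12 missed the threshold, with adjusted p-values of 0.0647, 0.0856 and 0.101 (edgeR). The medians were -0.16 in the large and -0.22 in the small subunit, and the groups did not overlap, with SER lower, for 22 genes (28.6%), against 12.7% of all genes. An unadjusted p under 0.05 (edgeR) was found for 16 members (20.8%), all of them lower, near the 18.6% of all genes in either direction. The call of Mrpl42 was lost when any one of C mice 2, 8 and 12, SER mice 6 and 20, SS mouse 19 and SES mouse 9 was left out, and without SS mouse 18, 4 members (5.19%) were called lower, beside 2.07% of all genes.

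**Figure D5:**
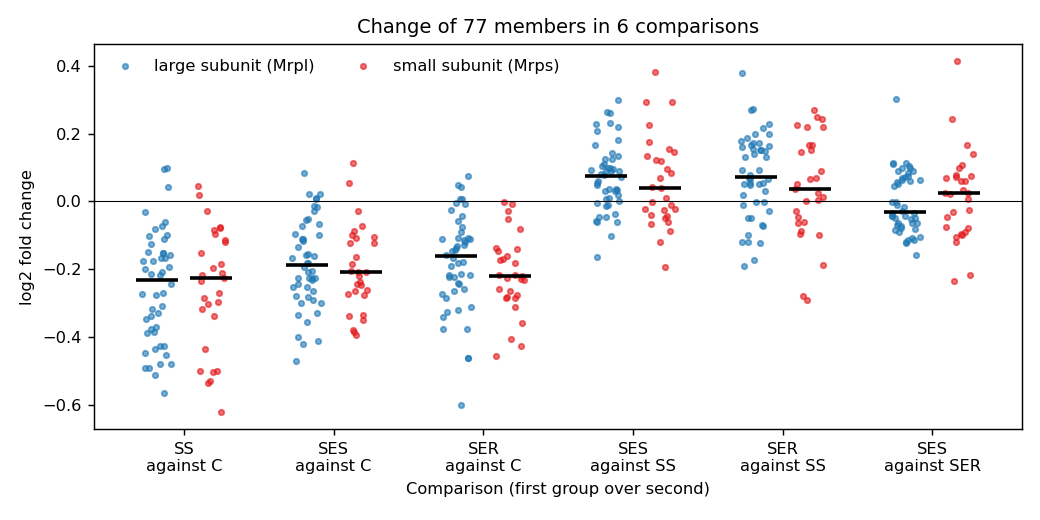
Log2 fold change of each member, large subunit in blue and small subunit in red, in the 6 comparisons (first group over second), with bars at the medians; the first 3 comparisons share the C mice. The medians are between -0.23 and -0.16 against C mice and between -0.03 and 0.07 among stressed groups.

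For the 12 genes called in SS against C mice, the values of the other comparisons stand beside that choice and, since mice are shared, are not independent of it. Against C mice their log2 fold changes ran from -0.40 to -0.19 in SES mice and from -0.60 to -0.23 in SER mice, against -0.62 to -0.44 in SS mice. Against SS mice all 12 were above 0 in SES mice, from 0.09 to 0.30, and 11 of 12 in SER mice, with Mrpl42 at -0.12.

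A few genes are read from several deposited transcripts. Of the 77, 9 have more than 1. Mrps36 has 2, with 86.5% and 13.5% of its counts. The minor one averaged 3.29 ± 0.70 CPM in SS mice and 6.10 ± 0.53 CPM in C mice, and the main one 20.3 ± 1.52 and 30.2 ± 2.25 CPM (SD, n = 3 each) and both means were lower in SS mice. Mrps10 divides its counts almost evenly, 48.1% and 50.5%, between a pair of transcripts. The first averaged 7.76 ± 1.92 CPM in SES mice, 11.3 ± 0.76 CPM in SER mice, 10.98 ± 5.04 CPM in SS mice and 14.4 ± 2.67 CPM in C mice. The second averaged 13.2 ± 3.46, 10.8 ± 5.03, 10.7 ± 5.70 and 12.0 ± 2.42 CPM in SES, SER, SS and C mice (SD, n = 3 each). The spread between mice in the levels of both Mrps10 transcripts was wide in SS mice, and such levels depend on how the authors divided reads among transcripts.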

How the data were processed

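RNA was extracted with Trizol and libraries were made with a kit that keeps strand, per the labels' protocols. The authors deposited whole-number estimated counts per RefSeq transcript, not normalized, 1 table per mouse; TopHat and mm10 are named in the submitters' processing notes. The counting program, use of strand and gene-model release were not given in the sources used here. Of the 77 genes, 23 share exon bases with another coding gene, 20 of these on the opposite strand (GENCODE M21), and reads of such genes or of near-identical copies may be mixed.

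The 33299 transcript rows were summed per symbol, filtered with filterByExpr (10 counts) and scaled by TMM (factors 0.97 to 1.04). All 12 libraries were fitted together in edgeR 4.0.16 (quasi-likelihood test, 8 residual degrees of freedom, R 4.3.3), adjusted over 14541 genes at 0.05. The biological coefficient of variation was 15.7%. CPM uses TMM-scaled totals. Fits were tested on simulated counts. DESeq2 1.42.0, limma-voom (limma 3.58.1), other scalings, filters, covariates and left-out mice were tried. Beside the values of every member, the text names, per comparison, from the 6 Mrpl and 6 Mrps genes with the lowest p, the 3 highest and lowest levels per subunit, and called genes of other lists; genes with fold changes at or above 0, or large ones without a call, Mrps10, Mrpl13 with its overlap and Mrps25 with the longest overlap were chosen after their values were seen. The members and lists were chosen with earlier results of these data known. Marker lists of pyramidal neurons, astrocytes, oligodendrocytes, microglia, endothelium and thalamus had 0 or 1 called gene in each direction in SS against C mice. Summed levels of these lists, except that of endothelium, are given with the results.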

Additional observations from a re-analysis of the deposited data

How the results depend on the processing

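No paired analysis was possible because the groups compared share at most 1 mouse number. Of 354 alternative values of the counts, medians and subunit differences, 311 kept direction and side of the threshold. The count of called members was kept in only 13 of 25 alternatives for SS against C and 11 of 25 for SER against C mice. In SS against C mice, 20 members were called by DESeq2's Wald test (7.32% of all genes lower), 35 without the pair of C mouse 2 and SS mouse 18 (11.9%), and 0 with both groups fitted alone, with transcripts as deposited, with SS mouse 18 standing alone for its group, with the nuclear RNA covariate and with the GC content and length correction. Members with an unadjusted p under 0.05 numbered 27 with both groups fitted alone and 30 with transcripts as deposited. They numbered 12 with the nuclear RNA covariate, near the share of all genes given above for that fit, and 15 with the GC content and length correction. For the other fits the share of all genes is not given here, so those counts cannot be set against it. Leaving out 1 mouse gave 0 to 26 called, with medians from -0.33 to -0.19. The median was -0.371 without that pair and -0.132 after the GC content and length correction.

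Without C mouse 2 and SS mouse 18, 1 member was called higher in SES against SS and 4 in SER against SS (3.99% and 8.14% of all genes higher), and 7 lower in SES against C and 7 in SER against C mice (2.49% and 1.96% lower). Leaving out 1 mouse gave 0 to 1, 0 to 3, 0 to 2 and 0 to 4 in these comparisons, with medians from -0.01 to 0.13, 0.00 to 0.15, -0.24 to -0.14 and -0.26 to -0.14. With SS mouse 18 standing alone, the medians were -0.0340 in SES and -0.0268 in SER against SS mice, and 3 named values changed sign: Mrps22 in SES (-0.0611) and Mrps33 (-0.00606) and Mrps5 (0.0309) in SER against SS mice.

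DESeq2's Wald test called 3 in SES against C and 4 in SER against C mice (1.33% and 2.04% of all genes lower). SER against C had 0 called with transcripts as deposited and with the GC content and length correction (median -0.0631), and 2 with the choroid plexus covariate. The share of all genes called with that covariate is not given here. The SES against C median was -0.11 with the nuclear RNA covariate and -0.12 with the GC content and length correction. Taking the median over members, small minus large subunit was 0.0349 in SS and 0.0203 in SES against C mice. SES against SER had 0 called throughout. The cause was not tested. With 3 mice a group and libraries of 9323607 to 15707516 counts, no member with a log2 fold change nearer 0 than -0.44 was called in SS against C mice.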

Other observations

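Lars2, the mitochondrial leucyl-tRNA synthetase, was listed at 0 in SER mice 6, 19 and 20. It had 9667, 4962 and 15172 CPM in SES mice 9, 10 and 12, 27728, 4437 and 10291 CPM in SS mice 18, 19 and 21, while C mice 2, 8 and 12 had 14314, 16379 and 11876 CPM. It was the only one of 19 mitochondrial tRNA synthetases called in SER against SS, in SER against C and in SES against SER mice (edgeR). All 19 together summed to 466 to 493 CPM in SER mice, far below Lars2 alone in the other groups. How reads were assigned to Lars2 is not given in the sources used here. Whether its counts measure the messenger RNA of the enzyme was not tested.

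Trmt2b and Rpusd3 were apart from C mice in each stressed group. Rpusd3 had 7.87 to 10.2 CPM in SES mice, 7.96 to 8.67 CPM in SER mice and 9.41 to 10.1 CPM in SS mice. Its 3 C mice lay between 5.99 and 6.28 CPM. Trmt2b had 12.2, 11.3 and 12.8 CPM in SES mice, 12.6, 11.3 and 14.8 CPM in SER mice, and 11.02, 10.8 and 10.9 CPM in the SS mice, against 15.9, 17.4 and 14.95 CPM in the C mice. Both were picked after their values were seen.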
